A study of Mus musculus with 8 samples.

Results

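The 9 genes described here encode proteins that build, branch, break down or regulate glycogen: the glycogen synthases Gys1 and Gys2, the primer protein gene Gyg, the branching enzyme gene Gbe1, the UDP-glucose pyrophosphorylase gene Ugp2, the phosphorylases Pygl and Pygb, and the phosphatase-targeting subunits Ppp1r3b and Ppp1r3c. They were taken as a fixed list of names, chosen with earlier results of these data known. All 9 of 9 were found among the 19937 genes measured, each with 1 probe set. Expression was measured on Affymetrix Mouse Gene 1.0 ST arrays in 4 c-MYC liver tumours and 4 control livers, with 1 array per sample. Per the labels, the tumours came from mice in which human c-MYC was overexpressed in the liver from the CEBPB-LAP promoter under doxycycline control, and they were harvested at the humane endpoint, while normal livers of matched mice served as controls. The transgene and doxycycline text stands on the labels of the control samples too, so whether control mice carried either is not settled by them. The labels give no strain or age, and they do not say whether each array is a different mouse. The p-values therefore set a group difference against the spread between samples within groups, which may in part be technical.

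Glycogen is the branched glucose store of liver and muscle. Glucose 1-phosphate is activated to UDP-glucose by Ugp2, glycogenin (Gyg) attaches the first sugars to itself, glycogen synthase lengthens the chains and Gbe1 adds the branches. Glycogen phosphorylase releases glucose 1-phosphate again. Liver uses mainly the isoforms Gys2 and Pygl, whereas Gys1 is the synthase of muscle and many other tissues and Pygb is the phosphorylase named for brain. Ppp1r3b and Ppp1r3c bring protein phosphatase 1 to glycogen, where it activates the synthase and switches off the phosphorylase.

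Values are RMA log2 values, so a difference of 1 is a 2-fold change, and all changes are tumours minus controls. Because probe sets differ in brightness, the level of one gene is not compared with that of another. As a gauge of dim signal, chosen after the values were seen, the group means of 1015 olfactory receptor genes had a median of 4.54 and a 95th percentile of 6.19. Control liver 3 stood apart in sex-linked genes, with Xist at 11.89 against 4.86 to 7.12 on the other 7 arrays and Eif2s3y, a Y-linked gene, at 3.46 against 8.56 to 9.37. By these genes control liver 3 read as female and the other 7 arrays as male, so it came from a different animal than the other controls. Without control liver 3 the same 8 genes passed the test described next. In array weights, tumour 4 counted least (0.426) and tumour 3 most (2.23).

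Of the 9 genes, 3 were higher and 5 lower in tumours at an adjusted p of 0.05 in limma, and Gys2 did not pass. Over all genes tested, 28.9% passed, 16.2% as higher and 12.7% as lower. Because the list was chosen with earlier results of these data known, shares set beside those of all genes describe it and do not test it. The higher genes were Gyg, Pygb and Gys1, and the lower ones Ugp2, Ppp1r3c, Pygl, Ppp1r3b and Gbe1. The median log2 change of the 9 was -0.99, against -0.04 over all genes. In bulk tissue, fewer cells of a type and less RNA per cell cannot be told apart. The 4 tumours lay wholly above the 4 controls for the 3 higher genes (16.3% of all genes did) and wholly below them for the 5 lower ones (13.9%), so 8 of 9 showed no overlap, against 30.2% of all genes. A change that passed and was at least 2-fold was seen for 6 of the 9, against 10.2% of all genes. A stricter limma test, which asks for more than a 1.5-fold change, was passed by 3 of the 9 (Gyg, Ugp2 and Ppp1r3b), against 8.62% of all genes.

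**Figure D1:**
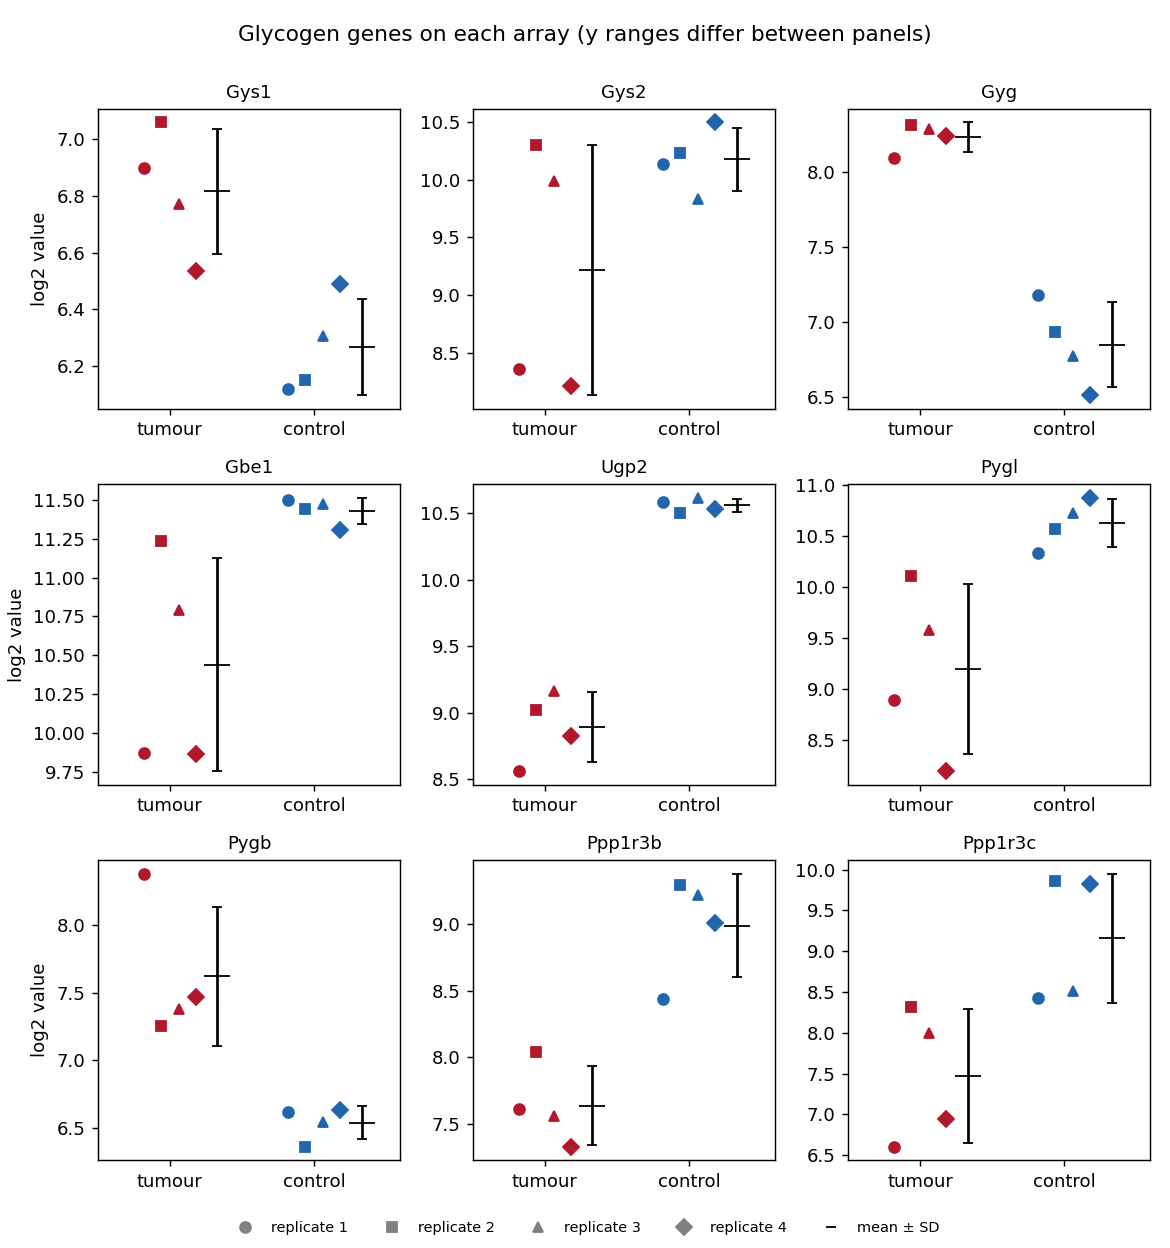
Log2 values (y axis, a range of its own in each panel) of the 9 glycogen genes in 4 tumours (red, left) and 4 control livers (blue, right); symbols mark the replicate number and bars the mean ± SD of 4 arrays. Tumours sit above controls for Gys1, Gyg and Pygb and below them for Gbe1, Ugp2, Pygl, Ppp1r3b and Ppp1r3c, while Gys2 overlaps because tumours 2 and 3 read 10.30 and 9.98.

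Among the genes that supply and start the polymer, Ugp2 and Gyg moved in opposite directions. Ugp2, whose enzyme makes the UDP-glucose from which glycogen and glucuronides are built, read 8.56, 9.02, 9.16 and 8.82 in tumours 1 to 4, against 10.59, 10.50, 10.61 and 10.53 in control livers 1 to 4. The groups were 1.34 apart at their nearest arrays, and the controls spanned only 0.11. Ugp2 averaged 8.89 ± 0.26 in tumours and 10.56 ± 0.05 in controls (SD, n = 4 each), a 3.18-fold fall (log2 change -1.67, SE 0.13, adjusted p = 5.1e-06 in limma). Gyg, the self-glucosylating primer, read 8.09, 8.31, 8.29 and 8.25 in the tumours and 7.18, 6.93, 6.77 and 6.51 in the controls. Every tumour was at least 0.91 above every control, and the tumours differed from each other by at most 0.22. Gyg rose 2.61-fold, to 8.24 ± 0.10 in tumours against 6.85 ± 0.28 in controls (SD, n = 4 each; log2 change 1.39, SE 0.14, adjusted p = 3.2e-05 in limma).

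For the synthases, the probe set of the widely expressed isoform rose and that of the liver isoform split the tumours. Gys1 read 6.90, 7.06, 6.77 and 6.54 in tumours 1 to 4 and 6.12, 6.15, 6.31 and 6.49 in controls 1 to 4. All tumours were above all controls, but tumour 4 and control 4 were only 0.05 apart. Gys1 rose 1.46-fold, with 6.82 ± 0.22 in tumours and 6.27 ± 0.17 in controls (SD, n = 4 each; log2 change 0.55, SE 0.13, adjusted p = 0.0097 in limma). The control mean lay close to the dim level of 6.19.

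Gys2, the liver synthase, read 8.36, 10.30, 9.98 and 8.21 in tumours 1 to 4, against 10.14, 10.23, 9.84 and 10.50 in controls 1 to 4. Tumours 1 and 4 were below every control, and tumours 2 and 3 lay within the control range. The means were 9.21 ± 1.08 in tumours and 10.17 ± 0.27 in controls (SD, n = 4 each). The log2 change of -0.96 (SE 0.43) had a 95% confidence interval of -1.93 to 0.0047 and did not pass (adjusted p = 0.13 in limma). Without tumour 1 it was -0.68, without tumour 4 -0.63 and with array weights -0.63 (adjusted p = 0.281 to 0.326 in limma). Without tumour 2 it was -1.32 and passed (adjusted p = 0.029 in limma, against 0.029 to 1 over all alternatives).

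Gbe1, which makes the branch points, showed a similar order of tumours. It read 9.87, 11.24, 10.79 and 9.87 in tumours 1 to 4, and 11.50, 11.44, 11.47 and 11.31 in controls 1 to 4. Tumour 2 was only 0.07 below the lowest control, whereas tumours 1 and 4 were 1.56 and 1.57 below the control mean. Gbe1 averaged 10.44 ± 0.69 in tumours and 11.43 ± 0.08 in controls (SD, n = 4 each), a 1.99-fold fall (log2 change -0.99, SE 0.28, adjusted p = 0.021 in limma). The call was lost without tumour 1 (log2 change -0.80, adjusted p = 0.058 in limma) or without tumour 4 (-0.80, adjusted p = 0.055), and the adjusted p was 0.0019 to 0.636 over all alternatives.

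The phosphorylases moved apart. Pygl, the liver form, read 8.89, 10.10, 9.58 and 8.19 in tumours 1 to 4, against 10.33, 10.57, 10.73 and 10.87 in controls 1 to 4. Tumour 4 was lowest, and tumour 2 came within 0.22 of the lowest control. Pygl fell 2.70-fold, to 9.19 ± 0.83 in tumours against 10.62 ± 0.23 in controls (SD, n = 4 each; log2 change -1.43, SE 0.34, adjusted p = 0.0089 in limma). Pygb, the brain form, read 8.38, 7.25, 7.38 and 7.47 in the tumours and 6.62, 6.36, 6.55 and 6.63 in the controls. Tumour 1 was the highest, and even the lowest tumour was 0.63 above the highest control. Pygb rose 2.12-fold, to 7.62 ± 0.51 in tumours against 6.54 ± 0.12 in controls (SD, n = 4 each; log2 change 1.08, SE 0.22, adjusted p = 0.0034 in limma).

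Both phosphatase-targeting subunits were lower. Ppp1r3b, the subunit called GL, read 7.61, 8.04, 7.55 and 7.33 in tumours 1 to 4, against 8.43, 9.30, 9.22 and 9.01 in controls 1 to 4. The groups were 0.39 apart, with control 1 the lowest control. Ppp1r3b fell 2.56-fold, to 7.63 ± 0.30 in tumours against 8.99 ± 0.39 in controls (SD, n = 4 each; log2 change -1.36, SE 0.20, adjusted p = 0.00052 in limma). Ppp1r3c, also called PTG (protein targeting to glycogen), read 6.60, 8.32, 7.998 and 6.95 in the tumours and 8.42, 9.86, 8.52 and 9.82 in the controls. It varied within both groups, with controls 1 and 3 more than 1 below controls 2 and 4, and tumour 2 came within 0.10 of control 1. Ppp1r3c fell 3.23-fold, to 7.47 ± 0.82 in tumours against 9.16 ± 0.79 in controls (SD, n = 4 each; log2 change -1.69, SE 0.44, adjusted p = 0.015 in limma).

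The spread among the 4 tumours was uneven across the 9 genes. Ranked among all genes tested, the tumour SD stood at percentile 99.8 for Gys2, 99.5 for Pygl and Ppp1r3c, and 99.1 for Gbe1. For Gyg it stood at percentile 19.3. Among controls, the SD stood at percentile 14.1 for Gbe1 and 4.04 for Ugp2, but at 99.0 for Ppp1r3c. For Gys2, Pygl, Gbe1 and Ppp1r3c, tumours 1 and 4 were the 2 lowest tumours and tumour 2 the highest. Tumours 1 and 4 were also the lowest for Ugp2 and Gyg, but there the tumours spanned only 0.60 and 0.22. The order was different for Gys1 and Ppp1r3b, where tumours 3 and 4 were the lowest, and for Pygb, where tumours 2 and 3 were.

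**Figure D2:**
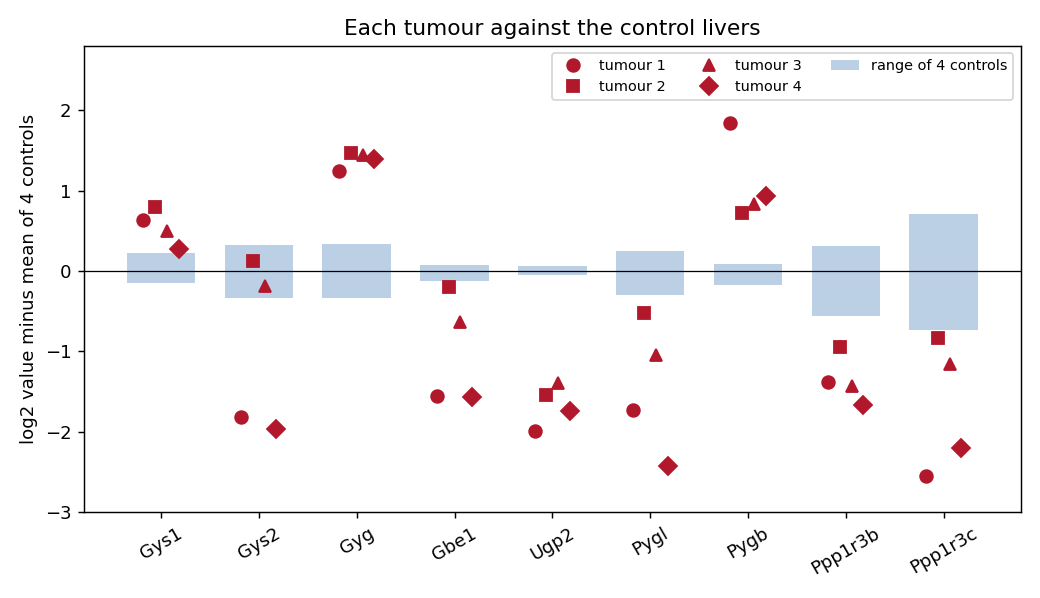
Log2 value of each tumour minus the mean of the 4 controls (y axis) for the 9 glycogen genes (x axis); symbols are tumours 1 to 4 and blue boxes the range of the 4 controls. For Gys2, tumours 1 and 4 lie at -1.81 and -1.96 while tumours 2 and 3 lie at 0.13 and -0.19, and for Gyg all 4 lie between 1.24 and 1.47.

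Marker genes of the liver's cell types were read on the same arrays, on which 28.9% of all genes passed, 16.2% as higher and 12.7% as lower. All 7 measured hepatocyte markers were lower (median log2 change -0.52), with a list mean of 11.58 to 11.94 in tumours and 12.28 to 12.50 in controls. The hepatocyte list mean was 11.84, 11.94, 11.83 and 11.58 in tumours 1 to 4, with tumour 2 highest and tumour 4 lowest, as for Gys2, and tumours 1 and 3 close together. Of 9 markers of division, 9 were higher, with list means of 8.92 to 9.54 in tumours and 5.57 to 6.12 in controls. Sinusoidal endothelial markers were lower in 5 of 9 cases and higher in none (list means 6.62 to 6.93 in tumours, 7.32 to 7.87 in controls), and stellate cell and fibroblast markers were lower in 5 of 10 and higher in 1 (6.55 to 7.09 in tumours, 7.48 to 7.62 in controls). Macrophage markers were higher in 3 and lower in 2 of 10 (7.44 to 7.99 in tumours, 7.47 to 8.12 in controls). Bile duct markers were higher in 1 and lower in 1 of 6 (5.59 to 5.95 in tumours, 5.65 to 5.71 in controls), and this share of 33.3% was near that of all genes.

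None of 7 lymphocyte markers passed (list means 5.77 to 6.04 in tumours, 5.65 to 6.31 in controls), nor did any of 6 skeletal muscle markers (5.99 to 6.21 in tumours, 6.02 to 6.26 in controls). At an unadjusted p of 0.05 in limma the count was 0 for both lists as well. The means of both lists lay near or below the dim level of 6.19, which limits what an absence of calls can show. Muscle is a tissue in which Gys1 is the main synthase, and the muscle phosphorylase gene Pygm read 5.42 to 5.55 in tumours and 5.44 to 5.67 in controls, below the dim level. The part of any cell type in the glycogen gene values was not tested.

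Whether isoforms changed unequally was asked from the difference between paired genes within each array, which carries no statement on which is more abundant. Gys2 minus Gys1 was 1.46, 3.24, 3.22 and 1.67 in tumours 1 to 4 and 4.02, 4.08, 3.53 and 4.01 in controls 1 to 4. All tumours were below all controls, so the synthase pair read lower, toward Gys1, in each tumour. In tumours 2 and 3, Gys2 itself lay within the control range. Their shift came mainly from Gys1 (0.79 and 0.50 above its control mean), which was near the dim level in controls. The shift was -1.51 on the log2 scale (2.40 ± 0.96 in tumours, 3.91 ± 0.25 in controls, SD, n = 4 each; exact two-sided permutation p = 0.0286, the smallest that 4 against 4 can give, adjusted p = 0.0429 over 3 pairs).

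Pygl minus Pygb was 0.51, 2.85, 2.20 and 0.73 in tumours 1 to 4, against 3.71, 4.20, 4.18 and 4.24 in controls 1 to 4. Again no tumour reached a control, and tumours 1 and 4 were farthest away. Pygl was already wholly lower and Pygb wholly higher in tumours. Those results fixed this separation and its smallest possible p-value, which adds no separate evidence. The shift toward Pygb was -2.51 (1.57 ± 1.14 in tumours, 4.08 ± 0.25 in controls, SD, n = 4 each; exact permutation p = 0.0286, adjusted p = 0.0429). Without any 1 of the 4 controls, neither shift passed (exact permutation, adjusted p = 0.129, against 0.0429 to 0.188 over all alternatives). Every tumour still lay below every remaining control, and the sizes were -1.63 to -1.45 for the synthases and -2.64 to -2.46 for the phosphorylases. Ppp1r3b minus Ppp1r3c gave 1.01, -0.28, -0.44 and 0.38 in tumours and 0.01, -0.57, 0.70 and -0.82 in controls. The groups overlapped, and a difference of 0.33 was not distinguished from the spread between arrays (exact permutation p = 0.486).

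**Figure D3:**
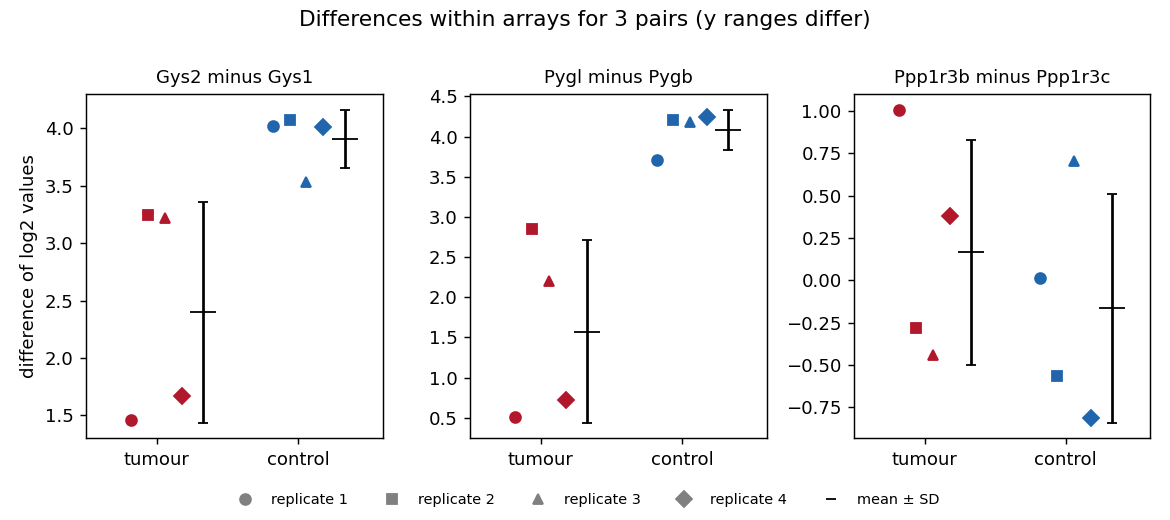
Difference of log2 values within each array (y axis, a range of its own in each panel) for the synthases, the phosphorylases and the phosphatase subunits, in 4 tumours (red, left) and 4 controls (blue, right), with the mean ± SD of 4 arrays. Tumours lie below controls for Gys2 minus Gys1 and Pygl minus Pygb, by -1.51 and -2.51 on average, and overlap them for Ppp1r3b minus Ppp1r3c.

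Promoter sequences from RefSeq (build GRCm38.p6) were matched by gene ID for 7 of the 9 genes, in 8 windows of 300 bases that run from 250 before the transcript start to 50 after it, Ugp2 having 2 windows. No window was available for Gys2 and Ppp1r3b, so the searches do not cover these genes. Both strands were searched. The E-box CACGTG, which MYC with MAX and related factors bind, was present in Gyg, which rose, and in Ppp1r3c, which fell, and in 7.15% of all 32851 windows. The CCAAT box, searched by these 5 letters, was present in Gys1, Ugp2 and Ppp1r3c and in 37.4% of all windows. The full cAMP response element, TGACGTCA, was in none of the 7 genes and in 1.79% of all windows. No match overlapped another in these genes. Such matches describe letters only, and the array data do not measure binding.

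The 2 E-box stretches are shown because they stand in a gene from each direction of change, with the E-box in capitals, 30 bases each, read 5′ to 3′ on the minus strand. The Gyg stretch is chr3:20155091-20155120, and its E-box begins 8 bases after the first transcribed base. The Ppp1r3c stretch is chr19:36736691-36736720, and its E-box begins 104 bases before the start.
Gyg: agcctgcgcggcCACGTGacggccgctata
Ppp1r3c: gagggaccggttCACGTGatctggctttga

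The 250 bases before the Gys1 start (chr7:45434589-45434838, plus strand) are shown because they hold 4 CCAAT boxes, in capitals, 1 of them on the opposite strand. The copies begin 216, 181, 96 and 55 bases before the start.
Gys1: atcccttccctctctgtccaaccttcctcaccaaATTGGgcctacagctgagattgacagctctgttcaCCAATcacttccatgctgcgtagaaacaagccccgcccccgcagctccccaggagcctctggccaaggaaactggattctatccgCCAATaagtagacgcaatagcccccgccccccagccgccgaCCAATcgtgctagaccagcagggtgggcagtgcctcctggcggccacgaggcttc

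The remaining enzymes of glycogen handling changed about as often as genes at large. Of 10 measured genes for lysosomal breakdown, phosphoglucomutases, phosphorylase kinase and the muscle phosphorylase, 2 were higher, 1 was lower and 7 did not pass (3 of 10 called, against 28.9% of all genes), with a median log2 change of -0.05. Pgm2 and Pgm2l1, of the phosphoglucomutase family, in which Pgm1 and Pgm2 have exchanged symbols and are named here by gene ID, rose by 0.91 (SE 0.14) and 0.56 (SE 0.14), with adjusted p-values of 0.00067 and 0.014 from limma. Pgm2 averaged 7.82 ± 0.18 in tumours and 6.90 ± 0.25 in controls (SD, n = 4 each). Phka1, the muscle-type regulatory subunit of phosphorylase kinase, the enzyme that switches phosphorylase on, changed by -0.66 (SE 0.14, adjusted p = 0.0049 in limma). Phka2, its liver-type counterpart, named after its value was seen, had a log2 change of 0.40 (SE 0.14) and an adjusted p of 0.054, just short of the threshold. It passed without control 3 (0.51, adjusted p = 0.016 in limma), with array weights (adjusted p = 0.039) and without the dimmest genes (adjusted p = 0.043).

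Of 13 regulators, 3 were higher, 1 was lower and 9 did not pass, with a median of 0.04. The share called, 30.8%, was near the 28.9% of all genes (16.2% higher and 12.7% lower). The rises were those of the 3 catalytic subunits of protein phosphatase 1. Ppp1ca read 9.96 ± 0.35 in tumours and 8.86 ± 0.39 in controls (SD, n = 4 each; log2 change 1.10, SE 0.21, adjusted p = 0.0029 in limma). Ppp1cc read 10.42 ± 0.20 in tumours and 9.35 ± 0.24 in controls (log2 change 1.07, SE 0.14, adjusted p = 0.00023 in limma). Ppp1cb, named to complete the count, rose by 0.37 (SE 0.10, adjusted p = 0.020 in limma). The Ppp1cb call was lost with the replicate block and without control 2, control 4 or tumour 3 (adjusted p = 0.0552 to 0.0604 in limma), and against a 1.5-fold change (adjusted p of 1). Epm2a, which encodes the glycogen phosphatase laforin, was the lower gene (-0.49, SE 0.09, adjusted p = 0.0023 in limma), with both group means, 5.68 in tumours and 6.17 in controls, below the dim level.

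Genes that bring glucose in or release it were called in 5 of 10 cases, 3 higher and 2 lower (against 28.9% of all genes, 16.2% higher and 12.7% lower; median 0.28). Hk2, a hexokinase, averaged 7.17 ± 0.15 in tumours and 5.89 ± 0.12 in controls (SD, n = 4 each; log2 change 1.28, SE 0.11, adjusted p = 9.7e-06 in limma), with the control mean below the dim level. Gckr, which encodes a regulator of glucose phosphorylation in liver, changed by -1.51 (SE 0.29, adjusted p = 0.0025 in limma) and Slc2a2, the GLUT2 glucose transporter, by -1.15 (SE 0.24, adjusted p = 0.0042).

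In hormone and kinase input, 4 of 11 genes were lower and none higher (36.4% called, against 28.9% of all genes, of which 12.7% lower; median -0.21). At an unadjusted p of 0.05, 1 was higher, and the adjusted count of higher members was also 0 in every alternative fit of this list. The count of lower members was 3 to 5 in those fits and 2 against a 1.5-fold change. Adra1b, the adrenergic receptor through which catecholamines drive glycogen breakdown in liver, read 5.79 ± 0.14 in tumours and 7.59 ± 0.19 in controls (SD, n = 4 each; log2 change -1.80, SE 0.12, adjusted p = 1.9e-06 in limma). Its tumour mean lay below the dim level. Irs1, an adaptor of the insulin receptor, changed by -1.45 (SE 0.20, adjusted p = 0.00029 in limma) and Pde3b, a phosphodiesterase activated by insulin, by -1.11 (SE 0.23, adjusted p = 0.0046). The fourth, Gcgr, the glucagon receptor, named to complete the count, changed by -0.85 (SE 0.27, adjusted p = 0.037 in limma). The Gcgr call was lost with median subtraction, with the replicate block and without control 4, tumour 2 or tumour 4 (adjusted p = 0.0528 to 0.0983 in limma), and against a 1.5-fold change (adjusted p of 1).

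Among 6 measured genes of other sugar nucleotide routes, 1 was higher and 2 were lower (3 of 6 called, against 28.9% of all genes; median -0.34). Pgm3, of UDP-N-acetylglucosamine synthesis, read 9.08 ± 0.20 in tumours and 7.63 ± 0.10 in controls (SD, n = 4 each; log2 change 1.45, SE 0.12, adjusted p = 6.9e-06 in limma). Uap1, which completes the same route, changed by -0.77 (SE 0.12, adjusted p = 0.00072 in limma). Ugdh, which oxidises the product of Ugp2 to UDP-glucuronic acid, changed by -0.64 (SE 0.16, adjusted p = 0.010 in limma).

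**Figure D4:**
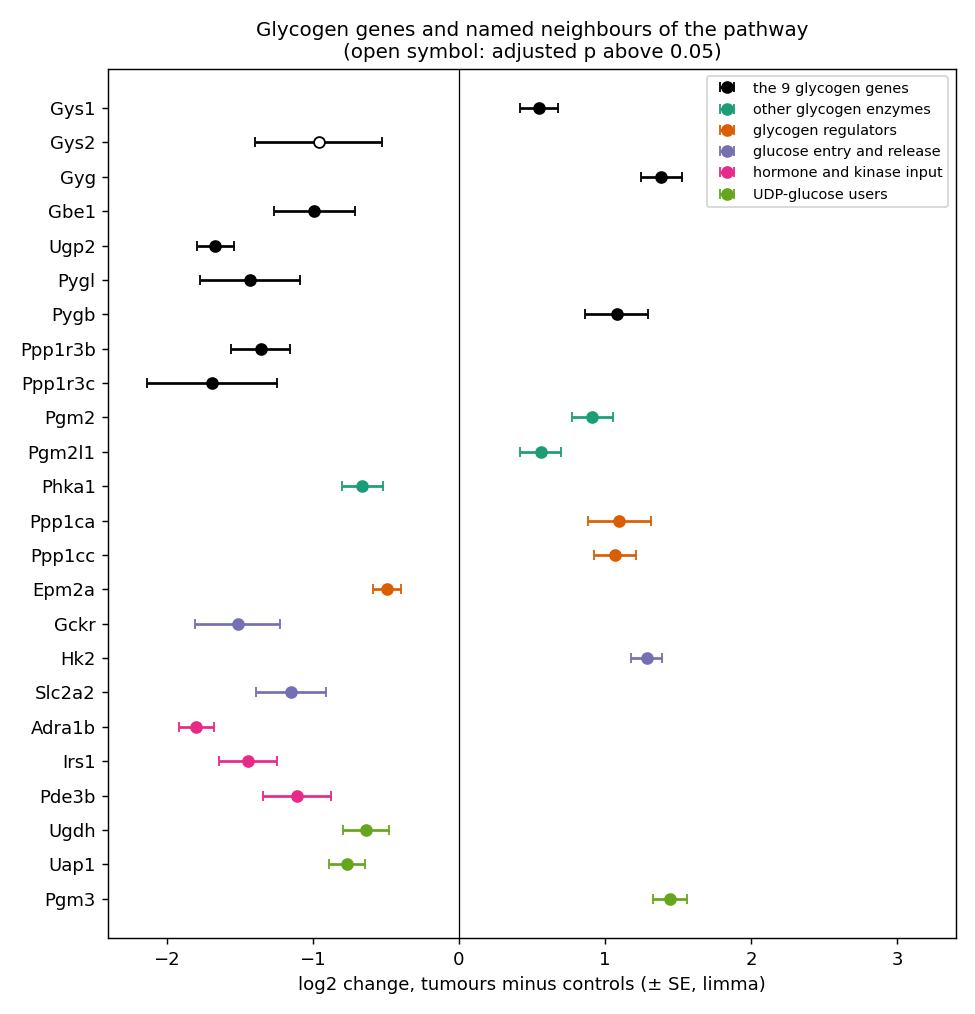
Change of each gene on the log2 scale with its SE (x axis, tumours minus controls) for the 9 glycogen genes (black) and the genes named from the 5 other lists (colours). The list labelled UDP-glucose users holds genes of other sugar nucleotide routes, not all of which use UDP-glucose. Filled symbols passed an adjusted p of 0.05; among the 9, only Gys2 (-0.96) is open, and values run from -1.69 for Ppp1r3c to 1.39 for Gyg.

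Genes with the profile most like the largest rise and the largest fall were sought over the 8 arrays, each gene centred on its own mean, by the root mean square difference. For Gyg the nearest were Nup155 (0.10), Npat (0.11) and Ptpn4 (0.12), against a median over all genes of 0.75. For Ppp1r3c they were Slc30a10 (0.44), Gstm3 (0.47) and Creg1 (0.47), against a median of 1.10. Over arrays in 2 groups, this measure is set mostly by the difference between tumours and controls, and it is given as a description. Ppp1r3c and Ugp2 fell by nearly the same amount (-1.69 and -1.67), and Ugp2 was the larger fall with array weights and without control 2, control 4, tumour 1 or tumour 4.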

How the data were processed

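The deposited table holds log2 values for 34760 probe sets on 8 arrays. The authors made them with RMA in R 3.0.2, per the submitters' processing notes. Its settings and the genome build are not given in the sources used here. Values were used as deposited, with array medians of 6.33 to 6.44. Probe sets with exactly 1 gene symbol in the platform's annotation (21640, of which 21553 matched a RefSeq gene table, used for names only) were kept, and 1321 with several symbols were left out. The probe set with the highest mean represented a gene. limma 3.58.1 in R 4.3.3 (lmFit, eBayes, group only) was fitted to all 19937 genes with Benjamini-Hochberg adjustment, and tested on simulated data. Pair differences had exact permutation tests. Tables and plots used Python 3.11.15, pandas 2.3.3 and matplotlib 3.10.9. Arrays give no counts, so the 4 arrays per group limit precision.

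All 9 genes were named. From each other list, the up to 3 largest changes past the threshold were named, plus the strongest change of the rarer direction. The members and lists were chosen with earlier results of these data known. Samples were treated as unpaired in the main fit. Alternatives were quantile normalisation, median subtraction, leaving out the dimmest genes (33.3%), robust variance with a trend on intensity, weights per array, a replicate block, probe set means, each array left out, and a test against a 1.5-fold change.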

Additional observations from a re-analysis of the deposited data

Results flagged for a closer look

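Among 54 groups of 4 values examined for 1 sample far from the rest, 3 were flagged by Dixon's gap test. That share is close to the 1 in 20 or so that chance alone gives. Epm2a read 5.84 in tumour 3, against 5.61 to 5.65 in the other tumours. Gys2 minus Gys1 was 3.53 in control liver 3, against 4.01 to 4.08 in the other controls, and control liver 3 was also the array with high Xist. Pygl minus Pygb was 3.71 in control liver 1, against 4.18 to 4.24 in the other controls. The causes were not tested.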

How the results depend on the processing

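The 9 genes kept their direction under every alternative run, and the 3 higher and 5 lower calls were unchanged by quantile normalisation, median subtraction, leaving out the dimmest genes, robust variance with a trend on intensity, weights per array and probe set means. Leaving out each array gave 4 to 6 lower genes and 3 higher ones. Over these fits the Gys2 change was -1.32 to -0.63 and that of Gbe1 -1.26 to -0.80. Against a 1.5-fold change, a stricter question that 8.62% of all genes passed, 1 of the 9 was higher (Gyg) and 2 were lower (Ugp2 and Ppp1r3b). Gys1 (log2 change 0.55), Pygl (-1.43), Pygb (1.08), Gbe1 (-0.99) and Ppp1r3c (-1.69) did not pass it (adjusted p of 1, 0.151, 0.205, 0.636 and 0.153 in limma). In that test the counts of higher and lower genes were 0 and 0 for other glycogen enzymes, 1 and 0 for regulators, and 1 and 0 for glucose entry and release. For hormone input they were 0 and 2, and for other sugar nucleotide routes 1 and 0. Array weights gave 4 higher glycogen enzymes, and the intensity trend gave 5 higher glucose genes. Lower regulators numbered 2 with quantile normalisation and 0 without the dimmest genes, which removes Epm2a, and 1 to 2 with an array left out (2 without control liver 3). Replicate numbers are shared by the groups. The correlations of same-numbered deviations were -0.06, 0.0048, 0.05 and -0.32. They gave no sign of pairing, but so few values cannot settle whether samples were paired. Tumour 3 read as male and control liver 3 as female (Eif2s3y 8.95 and 3.46), so this same-numbered pair came from different mice. With the replicate block all 8 calls stood in limma. The pair differences stayed at -1.51 and -2.51 with adjusted p = 0.188 in the exact sign-flip test with that block, which cannot go below 0.125 unadjusted. With each array left out they were -1.79 to -1.20 for the synthases and -2.94 to -2.16 for the phosphorylases. Signal over background limits Gys1 and the genes named as below the dim level.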
